A study of Mus musculus with 6 samples.

Results

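Of 10 genes that mark neurons and their differentiation, 2 were expressed at a moderate level in M1, a mouse neuroblastoma cell line, 1 was close to the limit of the test and the other 7 were at or near 0 reads. The genes were Tubb3, Map2, Dcx, Stmn2, Nefl, Nefm, Gap43, Elavl3, Ncam1 and Syp, taken by symbol from the 43629 mouse gene IDs of the count table, and all 10 were found. They cover the microtubules and neurofilaments of the neurite, the growth cone, a neuronal RNA-binding protein, a cell adhesion molecule and the synaptic vesicle. The set was named for its link to neurons, and these cells, by their reads, express only a small part of it.

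Poly-A RNA was sequenced in 6 libraries, 3 from M1 cells carrying the control hairpin shNT (genotype given as WT) and 3 from M1 cells carrying a hairpin against Igf2bp1 (shIGF2BP1, genotype given as IGF2BP1 knockdown). All 6 were treated with doxycycline at 4 to 6 µg/ml for 6 days, so the controls also received the drug and a hairpin. The labels do not say how many hairpins against Igf2bp1 were used, or whether the replicates were separate cultures or clones, so p-values cover only the spread among these 6 libraries, which may be technical. Libraries held 25119655 to 35373076 counts. The targeted transcript was not called lower in those labelled shIGF2BP1, termed knockdown-labelled from here on. Igf2bp1 had 37, 175 and 201 counts in shNT and 67, 35 and 311 counts in the knockdown-labelled libraries (log2 difference 0.25, SE 0.79; adjusted p = 0.966 by edgeR), and the difference was -1.24 without shIGF2BP1 replicate 3. The direction of every comparison rests on the labels.

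A neuron carries its length on microtubules, polymers of alpha- and beta-tubulin that are stabilised by microtubule-associated proteins and spaced by neurofilaments. Young neurons switch on the beta-tubulin isotype Tubb3, the microtubule organiser Dcx and the growth-associated protein Gap43 while neurites extend, and mature ones add neurofilament subunits, the dendritic protein Map2 and vesicle proteins such as Syp. Neuroblastoma arises from the sympathetic branch of the neural crest, and its more differentiated forms usually express many of these genes.

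RefSeq promoter windows were found for 5 of the 10 genes, and parts of 3 are shown because they set an expressed marker beside a pair of silent ones. The windows are the 250 bases before the annotated start (GRCm38.p6, 5′ to 3′ on the gene's strand). Only the bases that lie outside the GENCODE gene are printed, with every CG dinucleotide in capitals. They are chr8:123411303-123411423 (plus strand) for Tubb3, chr1:66175079-66175272 (plus strand) for Map2 and chrX:143933312-143933469 (minus strand) for Dcx.
Tubb3: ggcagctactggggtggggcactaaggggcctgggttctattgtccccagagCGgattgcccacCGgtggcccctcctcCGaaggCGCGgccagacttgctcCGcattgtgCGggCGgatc
Map2: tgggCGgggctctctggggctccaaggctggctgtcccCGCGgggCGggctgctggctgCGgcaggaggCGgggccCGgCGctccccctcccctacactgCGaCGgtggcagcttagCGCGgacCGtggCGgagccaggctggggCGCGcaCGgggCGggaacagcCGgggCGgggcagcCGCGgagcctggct
Dcx: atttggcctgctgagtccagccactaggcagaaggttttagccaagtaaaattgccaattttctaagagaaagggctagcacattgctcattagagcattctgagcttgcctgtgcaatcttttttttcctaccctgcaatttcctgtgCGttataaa
The whole 250-base window held 21 CG dinucleotides in Tubb3, 34 in Map2 and 3 in Dcx, where the median of 32851 promoter windows of this length was 6. The motif CG reads the same on either strand, and 92.1% of those windows held at least 1. The silent markers thus included the CG-rich window of Map2 and the CG-poor window of Dcx. The expressed Tubb3 lay between them. So did the windows not shown, with 20 CG dinucleotides in Elavl3 (53 counts over all libraries) and 11 in Syp (205 counts). Elavl3, with few reads, thus had nearly as many as Tubb3. The table holds no measure of methylation or factor binding at these starts.

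Tubb3 (ENSMUSG00000062380, chromosome 8 from 123411424 to 123422015, plus strand, GRCm38) encodes class III beta-tubulin, the isotype used to recognise neurons. It had 551, 777 and 598 counts in shNT and 199, 132 and 366 counts in the knockdown-labelled libraries. Scaled to library size by TMM (CPM), these were 18.6, 22.8 and 18.1 against 7.59, 3.74 and 13.3. Every shNT library lay above every knockdown-labelled library, with the lowest value in shIGF2BP1 replicate 2 and the value nearest to the controls in replicate 3. The group means were 19.8 ± 2.60 and 8.23 ± 4.83 CPM (n = 3 a group, SD), and the log2 difference was -1.27 (SE 0.40, 95% interval -2.15 to -0.39). The difference did not pass the test over all 13445 genes (edgeR adjusted p = 0.547, unadjusted p = 0.00878), and exact permutation of the log2 CPM, two-sided, gave p = 0.1, the smallest value that 3 against 3 libraries allow. It did pass when genes with few counts were kept in the fit (edgeR adjusted p = 0.0239). That fit called 138 of 21088 genes, against 3 of 13445 in the reported fit. Its log2 difference for Tubb3 was nearly the same, at -1.26 (SE 0.32, unadjusted p = 9.67e-05 by edgeR). With the filter kept, the log2 fold change was -1.81 without shIGF2BP1 replicate 3 and -0.91 without shIGF2BP1 replicate 2. In bulk RNA, fewer cells with Tubb3 and less Tubb3 RNA per cell cannot be told apart.

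Of the 3 tested markers, edgeR called 0 at an adjusted p under 0.05, where it called 0.0223% of all genes tested. DESeq2 and limma-voom also called 0 of the 3, where they called 82 and 1 of 13445 genes. By edgeR 1 of 3, Tubb3, had an unadjusted p under 0.05, as did 7.16% of all genes. Groups that did not overlap, with the knockdown-labelled libraries lower, were seen in 1 of 3 markers and in 5.59% of all genes tested. By sign, 1 tested marker was higher and 2 were lower, beside 6520 higher and 6925 lower among all tested genes.

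Library quality was compared beside the Tubb3 values. In shNT replicate 1, the 2670 genes with the shortest transcripts lay 0.19 above and the 2670 with the longest lay 0.24 below their mean log2 CPM over the libraries (medians). The longest Tubb3 transcript is 1868 bases, and leaving that library out gave -1.31 on the log2 scale. No 53-base stretch of the Tubb3 transcripts, 53 being the length of 1 read, occurs in a transcript of another annotated gene, so its reads are not shared with other tubulins. The list of fibroblast and mesenchymal markers, of which 9 of 12 were tested, had 6 higher and 3 lower, 5 of the 9 with an unadjusted p under 0.05 and 0 called, and summed to 789 to 1090 CPM in shNT and 632 to 1187 CPM in the knockdown-labelled libraries. Its member Prrx1, a homeobox factor of mesenchymal cells, had 142 ± 10.4 and 62.3 ± 11.6 CPM (n = 3 a group, SD; edgeR adjusted p = 0.13). Prrx1 was called by edgeR without a filter on low counts and by DESeq2 (adjusted p = 0.000645 and 0.000443). Those fits called 138 of 21088 and 82 of 13445 genes. Other members had the opposite sign. Postn had 0, 8 and 4 counts in shNT and 15, 11 and 91 counts in the knockdown-labelled libraries (log2 difference 3.48; adjusted p = 0.537 by edgeR, 0.0118 without a filter; 1.82 without shIGF2BP1 replicate 3). The contractile genes Tagln and Acta2 had log2 differences of 3.44 and 1.56 (adjusted p = 0.684 and 0.71 by edgeR), and of 1.06 and 0.14 without that library. In the same list Lum was at 0, Thy1 had 1 count and Col1a2 had 22. The leukocyte list, with 2 of 9 genes tested and 3 at 0, summed to at least 7.82 CPM in shNT and at most 6.35 CPM in the knockdown-labelled libraries. Its 2 tested genes had opposite signs, Cd68 with 231, 499 and 434 against 96, 196 and 86 counts and Fcer1g with 0, 6 and 1 against 10, 20 and 10 counts, and neither was called (adjusted p = 0.403 and 0.616 by edgeR). Cd68 passed without a filter and by DESeq2 (adjusted p = 0.0187 and 0.00811). The part of these lists in the Tubb3 values was not tested.

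**Figure D1:**
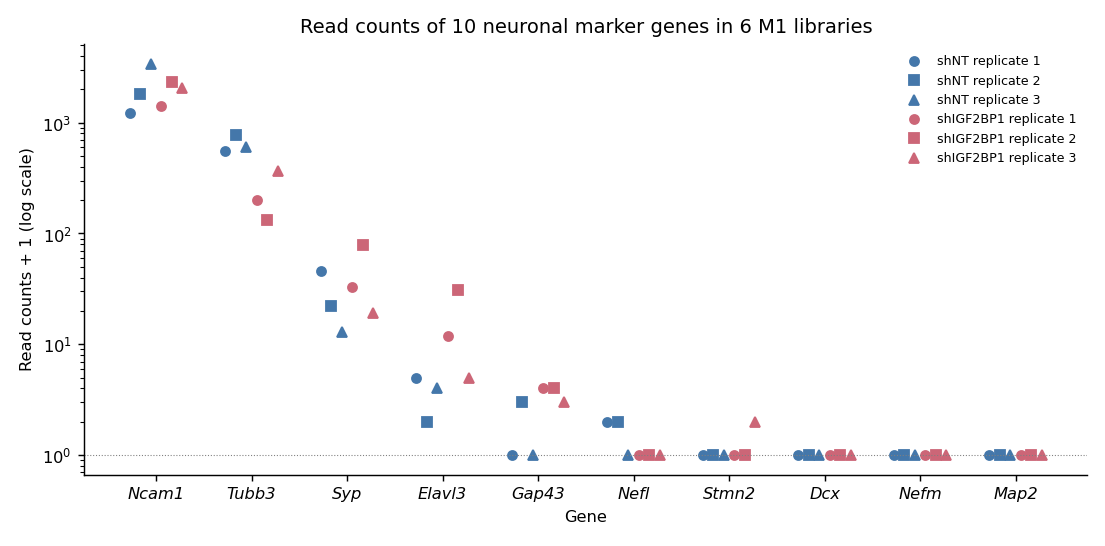
Read counts plus 1 on a log axis for each of the 10 markers, with 1 point per library (blue shNT, red shIGF2BP1, marker shape for replicates 1 to 3) and a dotted line at 0 counts. Ncam1 and Tubb3 hold nearly all the reads, the 3 red Tubb3 points lie below the 3 blue ones, and Dcx, Nefm and Map2 sit on the dotted line in all 6 libraries.

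Tubb3 supplied a small part of the beta-tubulin message. Levels of different genes were compared as RPKM, the reads scaled to library size and to annotated exon length, computed from the counts. Tubb5, the isotype of most dividing cells, had 448 ± 192 RPKM in shNT and 404 ± 54.2 RPKM in the knockdown-labelled libraries (n = 3 a group, SD), Tubb6 had 92.2 ± 6.26 and 96.5 ± 25.4, and Tubb3 had 10.6 ± 1.39 and 4.40 ± 2.59. As a share of the summed RPKM of 8 beta-tubulin genes, Tubb3 made up 1.40%, 1.47% and 2.26% in shNT and 0.606%, 0.388% and 0.992% in the knockdown-labelled libraries. The shares of the groups did not overlap (means 1.71% ± 0.476 and 0.662% ± 0.306, SD, n = 3 each, two-sided exact permutation p = 0.1, the smallest possible here). The share of Tubb4b did not overlap either, in the other direction, at 14.1% ± 2.12 and 16.8% ± 1.19 (exact permutation p = 0.1). The summed beta-tubulin level was 657 ± 207 and 635 ± 106 RPKM, and its groups overlapped.

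Tubb2b, a beta-tubulin of developing neurons, had the opposite sign. Its counts were 112, 468 and 601 in shNT and 642, 452 and 1222 in the knockdown-labelled libraries, and the groups overlapped in CPM. The means were 11.9 ± 7.37 and 27.3 ± 16.1 CPM (n = 3 a group, SD; log2 difference 1.20, SE 0.55; adjusted p = 0.70 by edgeR). The log2 fold change was 0.64 without shIGF2BP1 replicate 3 and 0.77 without shNT replicate 1. Tubb4a, another isotype of neural tissue, had 21.3 ± 3.42 and 26.5 ± 1.64 CPM, with every knockdown-labelled library above every shNT library, as in 6.06% of all genes tested (log2 difference 0.32, SE 0.22; adjusted p = 0.824 by edgeR). Of 13 tubulin genes 10 were tested, 7 higher and 3 lower, with a median log2 difference of 0.24, against -0.01 over all genes, and 0 were called.

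The dendritic protein Map2 (ENSMUSG00000015222, chromosome 1 from 66175273 to 66442583) and the microtubule organiser of migrating neurons Dcx (ENSMUSG00000031285, chromosome X from 143855842 to 143933311) had 0 counts in all 6 libraries. At 95% confidence and for counting error only, a count of 0 allows up to 3 counts, or 0.0851 to 0.114 CPM depending on the library. Stretches of 53 bases shared with other genes made up 0.13% of Map2 and 0.118% of Dcx, so discarding shared reads could remove little of either. Of 21551 protein-coding genes in the table, 31.2% likewise had no count in any library.

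Other microtubule-associated proteins were present where Map2 and Dcx were not. Mapt, the axonal protein tau, had 12.8 ± 3.06 RPKM in shNT and 16.7 ± 2.84 RPKM in the knockdown-labelled libraries (n = 3 a group, SD; log2 difference 0.39, SE 0.23; adjusted p = 0.788 by edgeR). Map1b, a protein of growing axons, had 342 ± 221 and 241 ± 112 CPM, and its relative Map1a had 195 ± 121 and 115 ± 34.4 CPM. Their log2 fold changes were -0.51 (SE 0.50) and -0.76 (SE 0.44), with edgeR adjusted p = 0.888 and 0.778. They were -0.02 and -0.27 without shNT replicate 3, -0.94 and -1.17 without shNT replicate 1, and -0.95 and -1.01 without shIGF2BP1 replicate 3. Without shIGF2BP1 replicate 2, Map1b was at -0.25. Both were lowest in shNT replicate 1, the library with low long transcripts, at 3088 counts for Map1b and 1999 for Map1a. In shNT replicates 2 and 3, where both were highest, the 2670 genes with the longest transcripts lay 0.17 and 0.11 above their mean log2 CPM (medians). In knockdown-labelled replicates 1, 2 and 3 those 2670 genes lay at -0.01, -0.03 and -0.03. The part of transcript length in the Map1a and Map1b values was not tested. The Dcx relatives Dclk1 and Dclk2 had means of 3.63 and 9.03 RPKM in shNT. Of 23 microtubule-associated genes 15 were tested, 7 higher and 8 lower, with a median log2 difference of -0.23, and 0 were called.

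Stmn2 (ENSMUSG00000027500, chromosome 3 from 8509360 to 8561606), a tubulin-binding phosphoprotein of growth cones, had 1 count in all, in shIGF2BP1 replicate 3. Its relative Stmn1, which is common in dividing cells, had 4922, 4990 and 3666 counts in shNT and 5982, 3968 and 6406 counts in the knockdown-labelled libraries. The groups overlapped, at 141 ± 27.9 and 191 ± 68.4 CPM (n = 3 a group, SD; log2 difference 0.44, SE 0.29; adjusted p = 0.808 by edgeR). Stmn3 was at 0 and Stmn4 had at most 3 counts in any library, so Stmn1 was the 1 tested gene of 4 stathmins.

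The neurofilament light chain Nefl (ENSMUSG00000022055, chromosome 14 from 68083863 to 68089095) had 1 count in each of shNT replicates 1 and 2 and 0 elsewhere. The medium chain Nefm (ENSMUSG00000022054, chromosome 14 from 68082590 to 68124846) had 0 counts in all libraries. The annotated exons of the 2 genes overlap on opposite strands over 1108 bases, 32.8% of Nefl and 19.2% of Nefm, and such reads could be lost if strand was not used in counting. The rest of each gene has no such overlap. Nefh, Ina and Nes, the heavy chain, alpha-internexin and the progenitor filament nestin, were also at 0. Filaments of other kinds carried the reads. Vim, the mesenchymal filament vimentin, had 503 ± 236 RPKM in shNT and 480 ± 22.7 RPKM in the knockdown-labelled libraries (n = 3 a group, SD; edgeR adjusted p = 0.983). Prph, the peripheral neuron filament peripherin, had 5.16 ± 0.862 and 6.04 ± 1.73 RPKM (edgeR adjusted p = 0.918). Of 13 intermediate filament genes 3 were tested, 1 higher and 2 lower, with a median log2 difference of -0.07.

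Gap43 (ENSMUSG00000047261, chromosome 16 from 42248442 to 42340651), a membrane protein of the growth cone, had 0, 2 and 0 counts in shNT and 3, 3 and 2 counts in the knockdown-labelled libraries. The pooled normalised counts gave a ratio of 4.36 with a 95% counting interval from 0.869 to 42.1, which covers counting error only. The similar growth cone protein Basp1 had 1 count in all. Marcks, a membrane protein found in many cell types, had 43.4 ± 11.5 and 58.2 ± 9.44 RPKM (n = 3 a group, SD), and Marcksl1 had 2.81 ± 2.11 and 5.37 ± 0.494 RPKM (log2 difference 0.94, SE 0.48; adjusted p = 0.753 by edgeR; 1.73 without shNT replicate 1 and 0.58 without shNT replicate 2). Fscn1, the actin bundler of filopodia, had 55.0 ± 15.5 and 76.9 ± 9.31 CPM (log2 difference 0.48, SE 0.23; adjusted p = 0.732 by edgeR). Of 14 growth cone genes 9 were tested, 6 higher and 3 lower, with a median log2 difference of 0.29, and 0 were called. Among them Nrn1 had 28.1 ± 17.0 RPKM in shNT and 27.2 ± 3.74 RPKM in the knockdown-labelled libraries (edgeR adjusted p = 0.988). Dbn1 had 6.65 ± 1.12 and 8.29 ± 0.805 RPKM (edgeR adjusted p = 0.814).

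Elavl3 (ENSMUSG00000003410, chromosome 9 from 22015005 to 22052023), the neuronal RNA-binding protein HuC, had 4, 1 and 3 counts in shNT and 11, 30 and 4 counts in the knockdown-labelled libraries. In CPM the groups did not overlap, at 0.0294 to 0.135 against 0.146 to 0.851, though shIGF2BP1 replicate 3 and shNT replicate 1 held 4 counts each. Among 7643 genes with counts but too few to be tested, 4.76% had groups that did not overlap with the knockdown-labelled libraries higher, Gap43 and Elavl3 among them. The pooled ratio was 6.13 with a 95% counting interval from 2.86 to 15.05, and 3.38 (1.35 to 9.22) without shIGF2BP1 replicate 2, which held 30 of the 45 counts. Both intervals cover counting error only and leave out the spread between libraries. With low genes kept in the fit, its edgeR adjusted p was 0.385. Elavl3 shares exon with the annotated gene Gm49318 over 3.72% of its length, and Gm49318 is not among the analysed IDs.

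Relatives of Elavl3 were expressed at very different levels. Elavl1, the form found in nearly all cells, had 10.7 ± 0.123 RPKM in shNT and 11.5 ± 1.95 RPKM in the knockdown-labelled libraries (n = 3 a group, SD), Elavl2 had 0.296 ± 0.176 and 0.347 ± 0.066, and Elavl4 was at 0. Nova2, a splicing factor of neurons, had 53, 93 and 31 counts in shNT and 104, 381 and 74 counts in the knockdown-labelled libraries. Like Elavl3 it was highest in shIGF2BP1 replicate 2 (log2 difference 1.68, SE 0.58; adjusted p = 0.606 by edgeR; 0.88 without that library). In that library the 2670 genes with the highest GC content lay 0.10 above and the 2670 with the lowest lay 0.08 below their mean log2 CPM (medians). Its part in the values of Elavl3 and Nova2 was not tested. Ptbp1, which represses neuronal exons, had 95.3 ± 19.8 and 80.4 ± 15.4 RPKM (edgeR adjusted p = 0.889), above the neuronal Ptbp2. Of 17 genes of this list 8 were tested, 3 higher and 5 lower, with a median log2 difference of -0.09, and 0 were called.

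**Figure D2:**
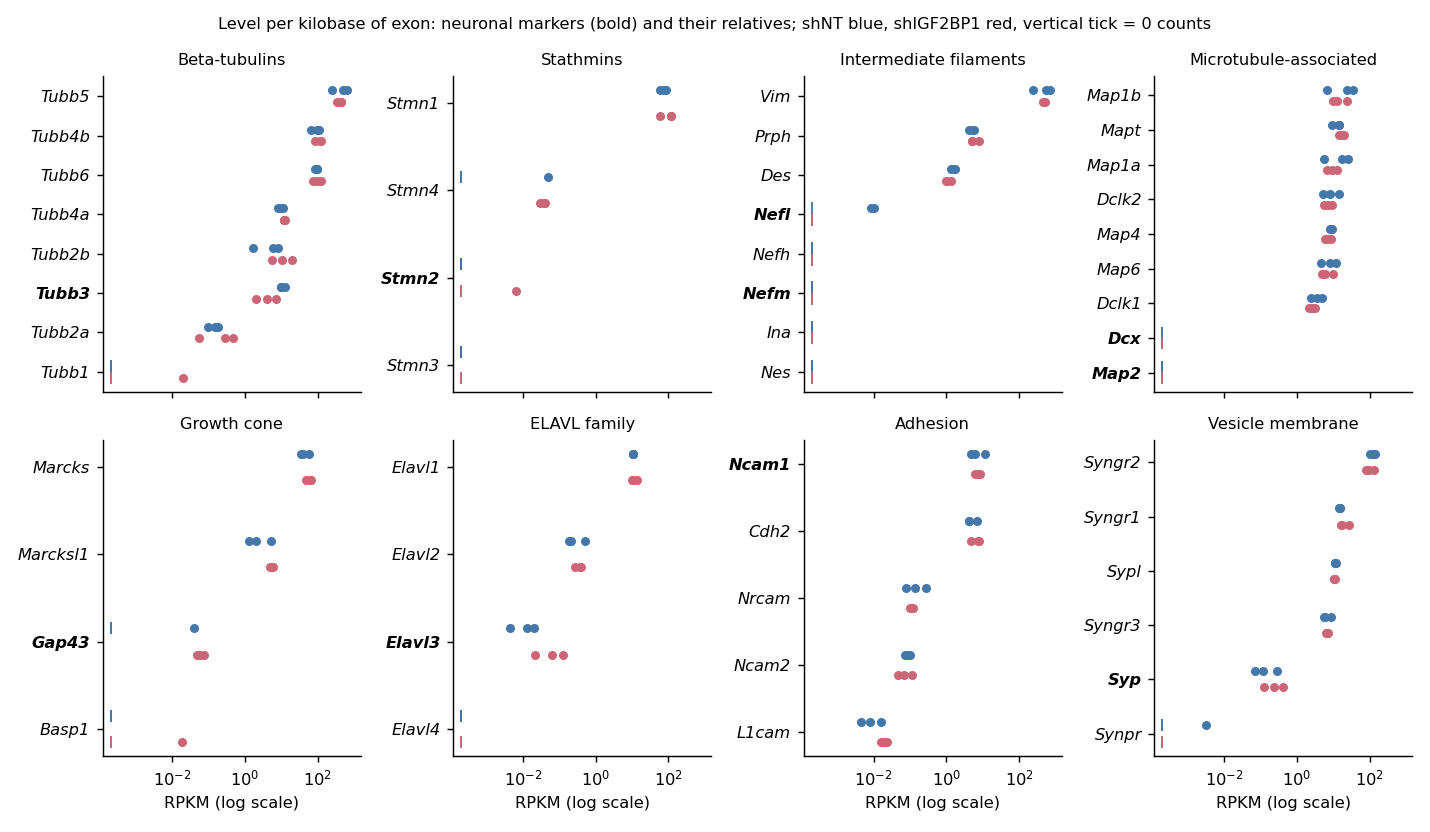
Level per kilobase of exon (RPKM, log axis) of the 10 markers, in bold, and their relatives in 8 families, with 1 point per library (blue shNT, red shIGF2BP1) and a vertical tick at the left edge for libraries with 0 counts. Widely expressed relatives such as Tubb5, Vim, Stmn1 and Elavl1 lie at 10 RPKM or more on average, while Map2, Dcx and Nefm show only ticks.

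Ncam1 (ENSMUSG00000039542, chromosome 9 from 49502136 to 49798925), the neural cell adhesion molecule, was the marker with the most reads. It had 1215, 1804 and 3405 counts in shNT and 1405, 2325 and 2063 counts in the knockdown-labelled libraries. In CPM these were 40.9, 52.96 and 103 against 53.6, 66.0 and 75.2, so that the 3 libraries labelled shIGF2BP1 lay inside the range of shNT. The means were 65.6 ± 32.9 and 64.9 ± 10.8 CPM (n = 3 a group, SD; log2 difference -0.02, SE 0.31, 95% interval -0.71 to 0.68; adjusted p = 0.994 by edgeR), and the sign turned with the scaling, to 0.05 with library size alone. The interval leaves room for a change of either sign. Ncam2 had at most 37 counts in any library and L1cam at most 6. St8sia2 and St8sia4, the enzymes that add polysialic acid to NCAM in young neurons, were at 0. Cdh2, N-cadherin, had 5.13 ± 1.71 and 6.73 ± 1.69 RPKM (edgeR adjusted p = 0.831). Of 15 neural adhesion genes 5 were tested, 1 higher and 4 lower, with a median log2 difference of -0.21, and 0 were called.

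Syp (ENSMUSG00000031144, chromosome X from 7638471 to 7653256), the synaptic vesicle protein synaptophysin, had 45, 21 and 12 counts in shNT and 32, 77 and 18 counts in the knockdown-labelled libraries. The groups overlapped, at 0.832 ± 0.606 and 1.35 ± 0.773 CPM (n = 3 a group, SD; log2 difference 0.71, SE 0.65, 95% interval -0.72 to 2.15; adjusted p = 0.879 by edgeR). The log2 fold change was 1.47 without shNT replicate 1, 0.35 without shNT replicate 3 and 0.18 without shIGF2BP1 replicate 2. An antisense gene, Gm14703, overlaps 16.8% of the Syp exon length and had 33, 16 and 18 counts in shNT and 31, 53 and 27 in the knockdown-labelled libraries. Like Syp, it was highest in shIGF2BP1 replicate 2. Whether strand was used in counting is not given in the sources used here. Without strand, reads of the 2 genes over the shared bases cannot be told apart.

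Vesicle genes that cells outside the nervous system also use were well represented beside Syp. Syngr2 had 121 ± 16.5 RPKM in shNT and 103 ± 26.3 RPKM in the knockdown-labelled libraries (n = 3 a group, SD), and Sypl, the widely expressed relative of Syp, had 11.4 ± 0.702 and 10.7 ± 0.265. Syngr1, a synaptogyrin of neurons, had 73.5 ± 2.72 and 97.0 ± 27.5 CPM (log2 difference 0.40, SE 0.22; adjusted p = 0.775 by edgeR; 0.16 without shIGF2BP1 replicate 2). The neuronal release proteins Snap25 and Syn1 had at most 10 counts in any library, whereas Snap23, the form used outside neurons, had 30.3 ± 1.76 and 39.5 ± 3.56 CPM (log2 difference 0.39, SE 0.20; adjusted p = 0.753 by edgeR). Of 26 vesicle and release genes 16 were tested, 7 higher and 9 lower, with a median log2 difference of -0.01, and 0 were called.

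**Figure D3:**
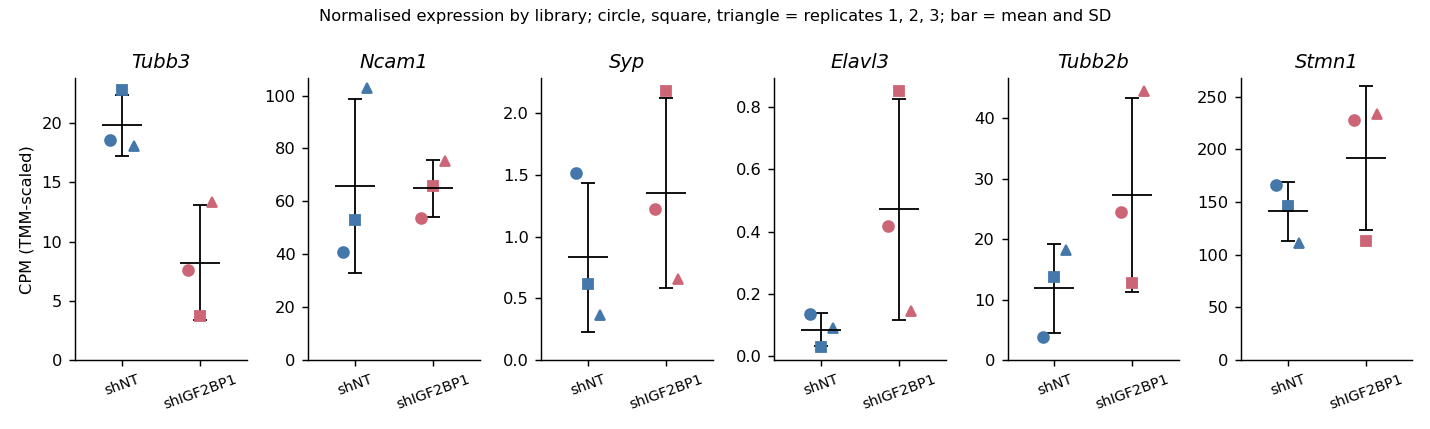
TMM-scaled CPM of 4 markers and of the relatives Tubb2b and Stmn1 in each library (linear axes, circle, square and triangle for replicates 1, 2 and 3, bars for mean and SD of 3 libraries). Tubb3 shows separated groups at 18.1 to 22.8 and 3.74 to 13.3 CPM, Ncam1, Syp, Tubb2b and Stmn1 overlap, and Elavl3 stays below 1 CPM.

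Averaged over the 6 libraries, the markers stood in the order Ncam1 (7.53 RPKM), Tubb3 (7.51), Syp (0.21), Elavl3 (0.04), Gap43 (0.036), Nefl (0.0031) and Stmn2 (0.0011), with Dcx, Nefm and Map2 at 0. In shNT Tubb3 (10.6 RPKM) was above Ncam1 (7.57), and in the knockdown-labelled libraries Tubb3 (4.40) was below Ncam1 (7.49). By the mean over all libraries Ncam1 and Tubb3 lay above 71.3% of protein-coding genes and Syp above 48.3%. The library values of Ncam1 (4.73 to 11.9 RPKM) and Tubb3 (2.00 to 12.2) overlapped, as did those of Syp and Elavl3, of Elavl3 and Gap43, of Gap43 and Nefl, and of Nefl and Stmn2. Every Tubb3 value lay above every Syp value, the highest of which was 0.419 RPKM. Ncam1 and Tubb3 together held 98.2% of the 15111 reads of the 10 markers.

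The expression patterns nearest to those of the 2 expressed markers over the 6 libraries were sought among 10479 genes with a mean of 5 CPM or more, by Pearson correlation of log2(CPM + 0.5). For Tubb3 they were Cdon (r = 0.995), a cell surface co-receptor, and Mzt1 (r = 0.992), a part of the gamma-tubulin complex, and for Ncam1 they were Hmga2 (r = 0.989), a chromatin protein of embryonic cells, and Heatr1 (r = 0.978), a ribosome biogenesis factor. These are descriptions over 6 libraries that share group and depth, and 0.754% of those genes had r above 0.9 with Tubb3 and 1.18% with Ncam1. In shNT and the knockdown-labelled libraries, Cdon averaged 153 and 130 CPM and Mzt1 averaged 73.8 and 47.2 CPM.

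The rest of the neuronal programme was checked in lists of genes set beside the 10 markers. Of 24 neuronal transcription factors 11 were at 0 in all libraries, among them Insm1, a factor of neuroendocrine precursors, and 8 were tested. Hand2, a factor of sympathetic and limb development, had 142 ± 54.1 RPKM in shNT and 187 ± 6.64 RPKM in the knockdown-labelled libraries (n = 3 a group, SD; edgeR adjusted p = 0.816), and Isl1, a factor of sensory and sympathetic neurons, had 7.20 ± 1.75 and 5.94 ± 0.645 RPKM (edgeR adjusted p = 0.874). Of 20 further neuronal markers 11 were at 0, among them the catecholamine enzymes Th and Dbh, and 5 were tested. Ddc, the decarboxylase that makes dopamine and is also found outside neurons, had 8, 4 and 2 counts in shNT and 41, 20 and 34 counts in the knockdown-labelled libraries. Its log2 difference was 2.89 (SE 0.71, edgeR adjusted p = 0.431). The groups of Ddc did not overlap, with the knockdown-labelled libraries higher, as in 6.06% of all genes tested. Ddc passed the test without a filter on low counts (edgeR adjusted p = 0.0425), where 138 genes were called, against 3 in the reported fit. Uchl1, an abundant neuronal hydrolase also made by many tumours, had 50.7 ± 3.97 and 65.4 ± 21.8 RPKM (edgeR adjusted p = 0.82), and Eno2, the neuronal enolase, had 16.1 ± 4.74 and 10.7 ± 4.91 RPKM (edgeR adjusted p = 0.772). Scn3a, a sodium channel of immature neurons, had 5.33 ± 2.73 and 1.94 ± 0.532 CPM (log2 difference -1.46, SE 0.49; adjusted p = 0.602 by edgeR). Of 10 dense-core granule genes 4 were at 0, including Chga, and 2 were tested. Cpe, a hormone-processing enzyme, had 376 ± 93.0 and 250.1 ± 26.6 CPM, with the lowest shNT library at 278.52 and the highest knockdown-labelled library at 278.45 (log2 difference -0.59, SE 0.24; adjusted p = 0.684 by edgeR). In these 3 lists 0 genes were called. Of the enzymes that mark the sympathetic lineage of the labelled cell type, Th and Dbh were thus at 0 in all 6 libraries, and Ddc was detected at low counts.

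Repressors of neuronal genes were expressed. Rest, which silences neuronal genes in other cell types, had 10.1 ± 1.16 RPKM in shNT and 9.69 ± 1.11 RPKM in the knockdown-labelled libraries (n = 3 a group, SD; edgeR adjusted p = 0.965). Its cofactors Hdac1 and Kdm1a had 111 ± 18.8 and 155 ± 24.3 CPM, and 136 ± 19.0 and 183 ± 5.04 CPM (log2 differences 0.49, SE 0.21, and 0.43, SE 0.19; edgeR adjusted p = 0.687 and 0.692). Of 16 genes in this list 14 were tested, 9 higher and 5 lower, with a median log2 difference of 0.19, and 0 were called.

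**Figure D4:**
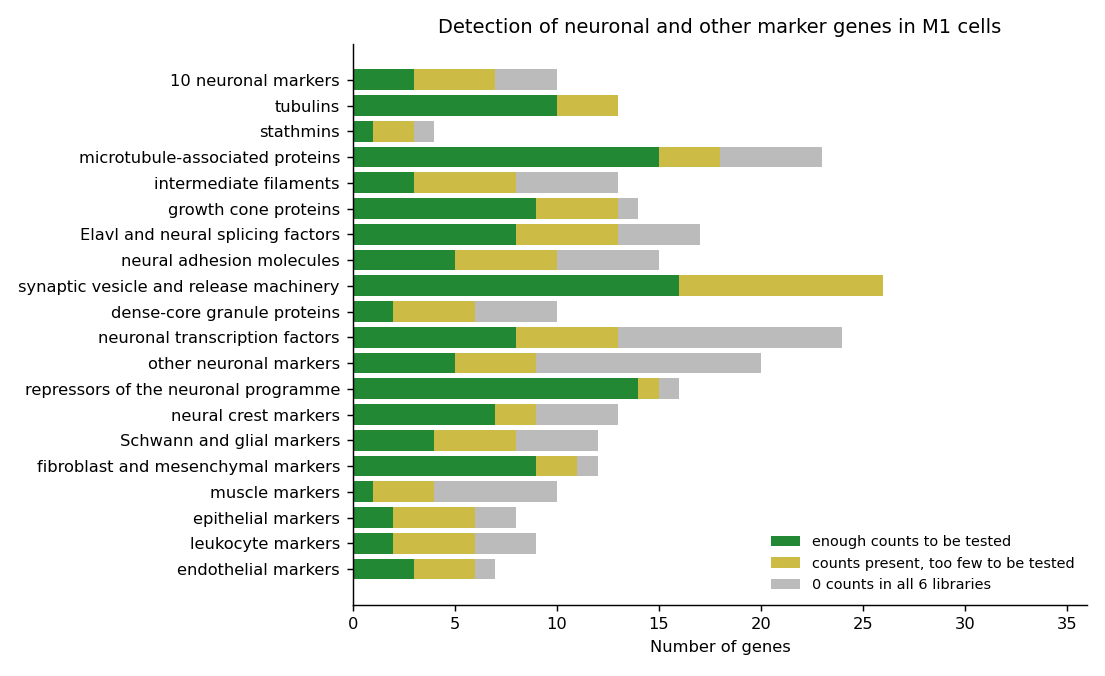
Number of genes in each list that had enough counts to be tested (green), counts but too few (yellow), or 0 counts in all 6 libraries (grey). Of the 10 neuronal markers 3 were tested and 3 were at 0, and of 24 neuronal transcription factors 8 were tested and 11 were at 0.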

How the data were processed

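The deposited table holds read counts per gene, 1 column per library, taken as unnormalised because the values are whole numbers with differing totals. Per the submitters' processing notes, bcl2fastq, HISAT2 2.1.0, HTSeq and build GRCm38 were used. For the annotation release, strand setting and read filters, the value is not given in the sources used here. Per the labels' protocols, libraries came from a stranded mRNA kit with paired reads of 53 cycles. The 92 spike-in rows hold 0 counts and were left out.

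Symbols, coordinates and exon lengths came from GENCODE M21 (GRCm38), which matched 42548 of 43629 IDs. The unmatched IDs held 0.111% of counts. The test was the robust quasi-likelihood F test of edgeR 4.0.16 (R 4.3.3) on TMM-scaled counts, with no covariates, over 13445 genes kept by filterByExpr (minimum count 10, minimum total 15), with Benjamini-Hochberg adjustment over all genes and a threshold of 0.05. RPKM used the union of annotated exons. Counting intervals are exact binomial. The test was tested on simulated data. Other settings were scaling by RLE or by library size alone, keeping all genes or those with a mean CPM of 5 or more, a replicate block, DESeq2 1.42.0, limma 3.58.1 with voom weights, each library left out, and, for RPKM, the longest transcript and unscaled libraries. The markers, lists and rules for named genes (all 10 markers, their relatives, the 3 highest and 3 smallest p of each list, and the 2 nearest patterns) were chosen with earlier results of these data known. Genes outside that rule, among them Dclk1, Dclk2, Nrn1, Dbn1, Lum, Thy1, Col1a2 and others at or near 0, were named after their values were seen.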

Additional observations from a re-analysis of the deposited data

How the results depend on the processing

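Of all genes tested, 3 were called in the reported fit and also after RLE scaling or scaling by library size alone. Without a filter 138 were called, DESeq2 called 82, the replicate block 18, and limma-voom or a mean CPM of 5 or more 1. With 1 library left out the number lay between 1 and 5, the 5 without shNT replicate 3. Markers called numbered 0 in 12 of 13 alternatives and 1, Tubb3, without a filter, and the cause was not tested. The Tubb3 log2 difference kept its sign in all 13, from -1.81 to -0.91, and Syp in the 12 where it was tested, from 0.18 to 1.47. Of 43 genes recomputed, 36 kept their sign throughout. Ncam1 was at 0.053 by library size alone, 0.0093 at a mean CPM of 5 or more, 0.084 under the replicate block and 0.082 by limma-voom, and at -0.27 to 0.47 over the leave-one-out fits. Igf2bp1 was at -0.047 under the replicate block, -0.24 by limma-voom and -1.24 to 0.76 over the leave-one-out fits. Vim was at 0.016 by library size alone, 0.057 under the block and 0.061 by limma-voom, and Rest at 0.014 by library size alone. Over the leave-one-out fits Vim lay at -0.40 to 0.25, Rest at -0.15 to 0.043, Tubb5 at -0.45 to 0.16, Tubb6 at -0.14 to 0.25, Prph at -0.023 to 0.35 and Elavl2 at -0.033 to 0.83. The labels do not say that replicate numbers mark a shared culture or day, so the numbers were not taken as pairs. Deviations of libraries sharing a number had r of 0.22, -0.10 and 0.30, the last being the highest between the groups. For shNT replicate 1, r was 0.220 with shIGF2BP1 replicate 2 and 0.216 with replicate 1. Values this small and mixed cannot decide whether the numbers mark pairs. The replicate block gave Tubb3 -1.43 (adjusted p = 0.292 by edgeR). With the longest transcript as length, Ncam1 had 9.94 and Syp 0.384 RPKM. The Gap43 ratio has no value without shNT replicate 2, which held both shNT counts. Low counts limit every marker but Ncam1 and Tubb3.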

Other observations

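Markers of other cell types were detected unevenly. Collagen chains that form type I fibrils together stood far apart. Col1a1 had 48.6 ± 9.44 RPKM in shNT and 48.9 ± 22.8 RPKM in the knockdown-labelled libraries (n = 3 a group, SD), while Col1a2, named after its values were seen, had 2 and 20 counts in all. Pecam1, an adhesion molecule of endothelial and some blood cells, had 6.00 ± 1.53 and 8.35 ± 3.58 RPKM, whereas the endothelial genes Cdh5 and Emcn had 2 and 0 counts over the 6 libraries. Of 13 neural crest markers 7 were tested, with Twist1 at 38.4 ± 3.12 and 33.2 ± 5.12 RPKM and Sox9 at 24.5 ± 13.7 and 20.2 ± 6.81, while Sox10 and Foxd3 were at 0. Of 12 Schwann and glial markers 4 were tested and 4 were at 0, of 10 muscle markers 1 was tested and 6 were at 0, of 8 epithelial markers 2 were tested and of 7 endothelial markers 3. The epithelial list summed to 1.69 to 2.09 CPM in shNT and 0.954 to 1.53 CPM in the knockdown-labelled libraries, and the muscle list to 5.49 to 6.60 and 4.16 to 5.02 CPM. Des, the 1 tested muscle gene, supplied most of the muscle sum. It had 5.75 ± 0.751 and 4.16 ± 0.701 CPM, and its groups overlapped (edgeR adjusted p = 0.831). The epithelial splicing factor Esrp1 had 27, 19 and 18 counts in shNT and 1, 0 and 1 in the knockdown-labelled libraries (adjusted p = 0.183 by edgeR, 0.0122 without a filter). With the filter as reported, edgeR called none of the genes of these lists. The lists summed to 227 to 357 CPM in shNT and 213 to 254 CPM in the knockdown-labelled libraries for neural crest, and to 19.5 to 24.8 and 21.4 to 29.4 CPM for Schwann and glial markers.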
